A study of Mus musculus with 73 samples.

Results

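The data described here are 4 wild-type libraries of polyadenylated RNA out of the 73 samples of the series, all 4 from undifferentiated E14Tg2a cells, a male line of mouse embryonic stem (ES) cells. They fall into pairs by their titles: 2 libraries were made as the wild type of the 40kb [Tsix-Xist] allele and 2 as the wild type of the 70kb [Xite-Jpx] allele, and are called here the 40kb-set and the 70kb-set wild type. Both sets carry the genotype WT and the strain 129/Ola, XY, and the labels give them 1 growth protocol: feeder-free culture on gelatin in Glasgow medium with serum and leukemia inhibitory factor (LIF). Neither set carries an edit, and the samples' names are E14-d0-B2 and E14-d0-B6 for replicates 1 and 2 of the 40kb set and E14.2-d0-B13 and E14.2-d0-B14 for those of the 70kb set. The meaning of "E14.2" and of the B codes is not stated in the labels, so the set cannot be told apart from whatever these names mark. Nothing in the labels says that the replicates were separate cultures. The p-values therefore measure only a spread between libraries, pooled over the 12 in the fit. The other 8 RNA libraries, 4 of the 40kb allele (clones 2G1 and 3D5) and 4 of the 70kb allele (clones 18C6 and 20E7), each clone with 2 replicates, entered the fit and serve here as a yardstick. The question is how far wild-type cultures of 1 line differ from each other before any allele is considered.

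ES cells kept in serum and LIF are a mixture. Most cells hold the naive network of Pou5f1, Sox2 and Nanog, while some lean towards the primed state or towards primitive streak, endoderm or flattened, adherent derivatives, and a rare fraction shows transcripts of the cleavage-stage embryo. The proportions drift with passage, density, serum and time in culture. In bulk RNA a lower level of a marker can mean fewer cells of a type or less RNA per cell, and these cannot be told apart.

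The 4 libraries held 41659773 and 37931578 counts (40kb set) and 41033358 and 38322819 counts (70kb set), within the range of 34514493 to 46605508 over the 12 RNA libraries. TMM scaling factors were 1.049 and 1.042 in the 40kb set and 1.009 and 1.004 in the 70kb set. Mitochondrially encoded protein genes took 1.96% to 2.19% of the counts. Across the 12 libraries the ES cell factors were abundant, Pou5f1 at 775 to 1360 CPM (counts scaled to a common library total after TMM), Sox2 at 405 to 687 CPM and Nanog at 305 to 694 CPM. Hprt, the purine salvage gene that this line is known to lack in part, was at 0.211 to 0.845 CPM.

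The 70kb-set replicates lay as far from each other as from the other set. A pair of libraries was compared by counting the genes that differed at least 2-fold in log2 CPM among the 14403 genes that averaged 20 counts or more over the 4 libraries. Between the 40kb-set replicates 196 genes did so (1.36%), and between the 70kb-set replicates 1023 (7.1%). Pairs from different sets had 343 to 1294 such genes: 343 and 492 with replicate 2 of the 70kb set, 890 and 1294 with its replicate 1. Replicate 1 of the 70kb set was thus the library that stood apart. It was at least 2-fold below each of the other 3 wild-type libraries in 386 genes and above them in 66, against 3 to 64 genes in either direction for any other single library. In the 4 allele clones the replicate pairs had 442 to 1419 genes, so the 1023 of the 70kb-set wild type lie within that range and the 196 of the 40kb set below it.

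The nearest neighbours of the 70kb-set libraries were allele libraries with their own B code. Replicate 1 (B13) differed at least 2-fold in 202 genes from the B13 library of clone 18C6 and in 366 from the B13 library of clone 20E7, fewer than from any wild-type library. Replicate 2 (B14) differed in 322 genes from the B14 library of clone 18C6 and in 343 from replicate 2 of the 40kb set. The code did not order every library: the B14 library of clone 20E7 was 871 genes away from replicate 2. In the 40kb set the nearest library to each replicate was the other replicate, and the allele libraries of clones 2G1 and 3D5 with the same codes, B2 and B6, were 1581 and 1560 genes away. What part the code plays in the differences between the sets was not tested.

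**Figure D1:**
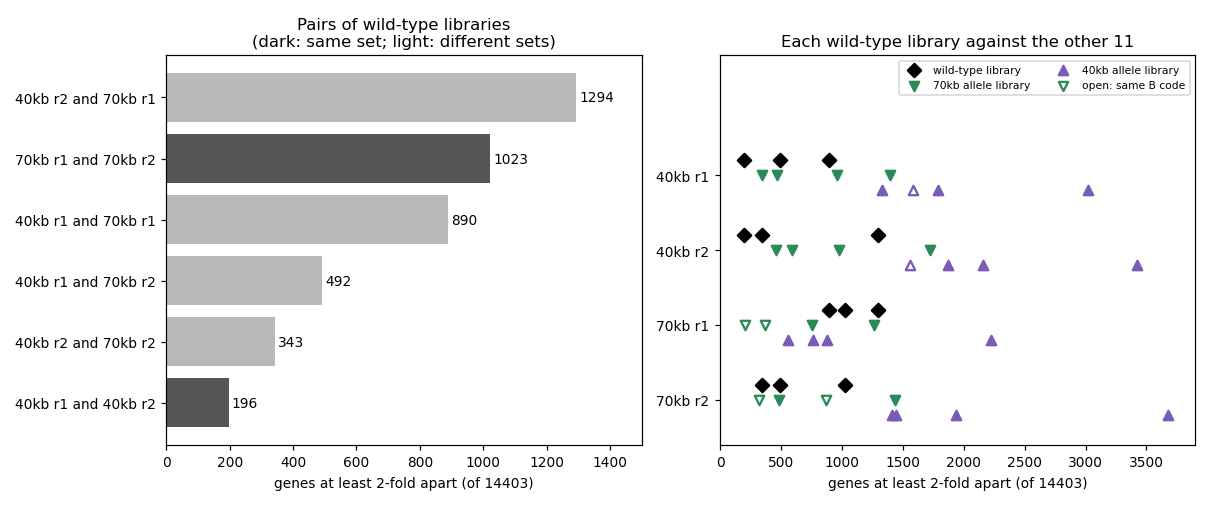
Number of genes that differ at least 2-fold (of 14403) between pairs of wild-type libraries (left, bars from 0; r1 and r2 are replicates 1 and 2) and between each wild-type library and each of the other 11 RNA libraries (right, 1 symbol per library, open where the B code is shared). The 40kb-set replicates are 196 genes apart, the 70kb-set replicates 1023, and replicate 1 of the 70kb set is nearest to 2 allele libraries of its own code.

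No gene was called between the wild-type sets. In edgeR's quasi-likelihood F test, fitted to all 12 libraries by group and adjusted by Benjamini-Hochberg, 0 of 16636 tested genes (0%) passed an adjusted p of 0.05, and the smallest adjusted p was 0.997. DESeq2 called 0 as well (smallest adjusted p = 0.0838). At an unadjusted p under 0.05 edgeR had 394 genes (2.37%; 214 or 1.29% higher and 180 or 1.08% lower in the 70kb set) and DESeq2 469, where the threshold alone allows 5% when nothing differs. In the fit of 12 libraries the clones of an allele shared a mean, so differences between clones entered its spread. With a mean per clone edgeR had 733 of 16636 (4.41%), with 1 called. Fitted to the 4 wild-type libraries alone, edgeR had 1167 of 15936 (7.32%), and with the replicate number as a block 2092 (13.1%), both with 0 called. The median of the absolute log2 difference between the sets was 0.19. Both 70kb-set libraries lay above both of the 40kb set in 21.2% of genes and below both in 19.0%. The log2 difference was above 0 in 51.1% of genes. These shares are the background for the counts below. Every gene named below therefore has an adjusted p of 0.997 in edgeR, and what follows gives levels and sizes, not calls. A p that misses the threshold does not show that a gene is equal in both sets.

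Between the wild-type sets, it was the 40kb set that more often held the highest or lowest levels of the 12 libraries. Both of its libraries were above all other 10 in 450 genes (2.70%) and below all other 10 in 441 (2.65%), against 50 (0.301%) and 72 (0.433%) for the 70kb set. The 40kb-set replicates also lay closer together than those of the 70kb set, and a close pair falls more easily beyond all others in a gene. The pairs of the allele clones were not counted in this way. By genes at least 2-fold apart, the library farthest from each wild-type library was replicate 1 of clone 2G1 (2224 to 3674 genes).

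The genes with the smallest unadjusted p among those higher in the 70kb set had no single theme. Capn3 (ENSMUSG00000079110.4), a calcium-dependent protease best known from skeletal muscle, was at 11.7 and 13.97 CPM in the 40kb set and at 38.8 and 36.6 CPM in the 70kb set. The sets did not overlap, and the 8 allele libraries, at 16.4 to 40.6 CPM, were all above the 40kb set. Its log2 difference was 1.56 (SE 0.41, unadjusted p = 0.00222), and it was the 1 gene called when each clone had its own mean in the fit (SE 0.18, adjusted p = 0.0352 in edgeR). Myo1f, a class I myosin of blood cells, was at 2.36 and 2.48 CPM against 9.74 and 6.94 CPM (log2 difference 1.78, SE 0.45, unadjusted p = 0.00181), again with the 40kb set below all other libraries. Trim36, a ubiquitin ligase gene, was at 9.76 and 11.9 CPM against 24.2 and 27.7 CPM (1.26, SE 0.32). Neurod1, a neuronal and pancreatic transcription factor, was at 8.04 and 5.97 CPM against 22.4 and 13.2 CPM (1.34, SE 0.40). The allele libraries, at 11.2 to 30.5 CPM for Trim36 and 5.19 to 25.5 CPM for Neurod1, reached the levels of both sets.

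The remaining genes of that group were Rasa4, a Ras GTPase-activating protein (9.14 and 9.14 against 16.7 and 13.3 CPM), Platr17, a pluripotency-associated transcript (15.98 and 16.0 against 38 and 23.1 CPM), Uchl1, a neuronal deubiquitinase (39.2 and 44.0 against 74.4 and 61.4 CPM), Srgn, a proteoglycan gene also used as an endoderm marker (0.252 and 0.101 against 1.67 and 0.572 CPM), and Mt2 and Gpx1, described below. Of these 10 genes 5 had both 40kb-set libraries below the other 10 libraries. The share of all genes was 2.65%, but the 10 were named because their sets do not overlap, so the count carries no test. Of the 3526 genes with both 70kb-set libraries above both of the 40kb set, 441 met the same condition. The log2 difference of Srgn, 2.63 in the fit, was 1.66 without replicate 1 of the 70kb set, where its level was highest.

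Among genes lower in the 70kb set, the transcriptional repressor Hes1 and the immediate-early factor Egr2 stood beside 5 genes of 1 chromosome. Hes1 (ENSMUSG00000022528.7), a target of Notch signalling, was at 42.8 and 67.8 CPM in the 40kb set and at 22.7 and 30.2 CPM in the 70kb set (log2 difference -1.07, SE 0.30, unadjusted p = 0.0039, and -0.70 without replicate 2 of the 40kb set). Its allele libraries, at 21.1 to 45.9 CPM, spanned the gap. Egr2 was at 1.47 and 1.54 CPM against 0.459 and 0.442 CPM (-1.73, SE 0.47, unadjusted p = 0.00309), and the allele libraries, at 0.297 to 0.812 CPM, were all below the 40kb set. Wfikkn1, a secreted protein with protease-inhibitor domains, was at 1.47 and 1.37 CPM against 0.338 and 0.390 CPM (-1.95, SE 0.50). Kbtbd2, a kelch-domain gene, and Snap47, a SNARE protein gene, differed by less (log2 differences -0.41, SE 0.13, and -0.40, SE 0.13) with tight replicates, at 66.8 and 70.0 against 49.8 and 53.2 CPM and at 49.0 and 51.1 against 39.9 and 36.2 CPM.

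The other 5 were all on chromosome 8: Zfp869, a zinc finger gene (16.9 and 18.8 against 8.70 and 10.9 CPM), Fut10, of the fucosyltransferase family (5.70 and 7.47 against 2.90 and 4.08 CPM), Trmt9b, of a tRNA methyltransferase family (2.24 and 2.86 against 1.14 and 1.196 CPM), Wrn, the RecQ helicase of Werner syndrome (27.2 and 32.0 against 19.4 and 21.7 CPM), and Letm2, of a mitochondrial inner membrane family (1.40 and 1.34 against 0.435 and 0.676 CPM). Of the 10 genes named as lower, 8 had both 40kb-set libraries above the other 10 libraries, all 5 of chromosome 8 among them. The share of all genes was 2.70%, but the genes were named because their sets do not overlap, so the count carries no test. Of the tested genes with a chromosome 5.13% were on chromosome 8, and of the genes lower at an unadjusted p under 0.05, 25 of 167 (15%).

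**Figure D2:**
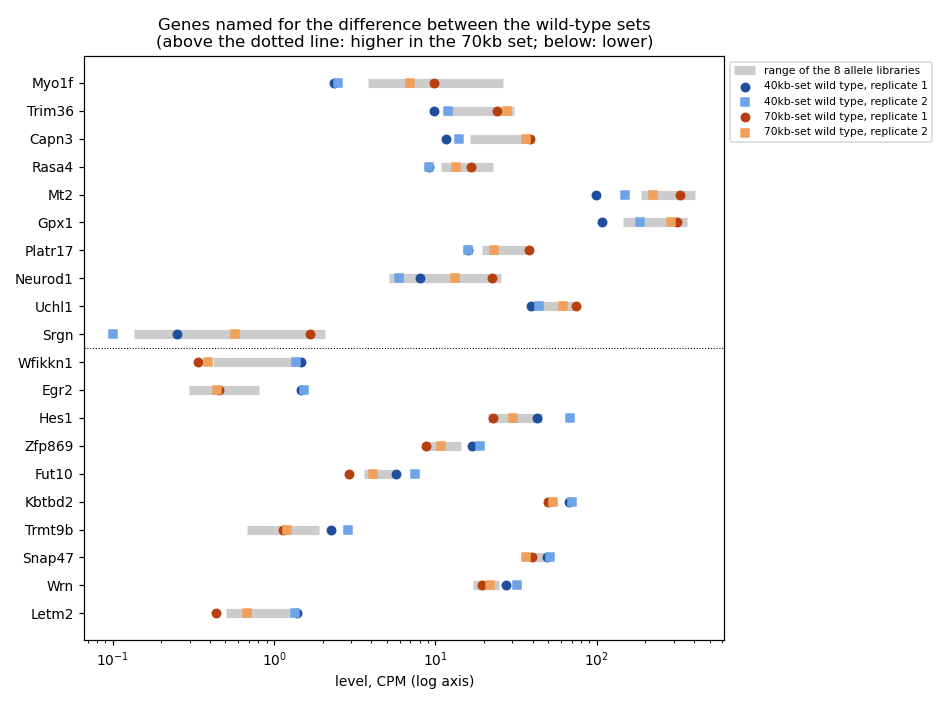
Levels in CPM (log axis) of the 20 genes named for the difference between the wild-type sets, 1 symbol per wild-type library, with the range of the 8 allele libraries as a grey bar. Above the dotted line the 70kb-set libraries are higher, below it lower; for Capn3 and Wrn the 40kb set lies outside the grey bar on one side while the 70kb set lies within it.

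Chromosome 8 had the lowest median of the autosomes and the X. Its 805 tested genes had a median log2 difference of -0.09 (70kb set minus 40kb set), against -0.05 on the X and -0.05 to 0.05 on the other autosomes. Both 70kb-set libraries were below both of the 40kb set in 251 of them (31.2%) and above in 74 (9.19%), against 19.0% and 21.2% of all genes. Each replicate showed it: the median of its genes, centred per gene on the 12 libraries, was 0.06 and 0.07 in the 40kb set and -0.01 and -0.03 in the 70kb set. The size is small, and it stayed between -0.08 and -0.15 under all alternatives, without each wild-type library in turn among them. The 8 allele libraries ranged from -0.13 to 0.13 on the same scale, so that chromosome 8 as a whole did not set the 40kb-set wild type apart from them. Gene order here is that of the RefSeq table of assembly GRCm38.p6, whose chromosomes were matched by symbol.

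Many of the windows with lower levels lay next to each other in 1 stretch of the chromosome. Windows of 40 neighbouring genes, moved by 20 genes, gave 652 windows over the autosomes and the X, 34 of them on chromosome 8. Of the 20 windows with the lowest medians 8 were on chromosome 8, and the lowest of all, from Saraf to Primpol, had a median log2 difference of -0.23 with 35 of its 40 genes below 0. On chromosome 8, 10 windows in a row had a median below -0.1, and on any other chromosome at most 3 in a row did. These 10 windows hold 220 genes from Timm44 to Lpar2, among them all 5 genes of the chromosome named as lower. Mt2, named as higher, is on the chromosome as well and lies outside the stretch. Of the 8 windows among the lowest 20, 7 lie in this stretch, and 1, from Mphosph6 to Piezo1 (median -0.15), lies outside it, as do neighbouring windows 24 and 25 (-0.14 and -0.11). The median of the 220 genes was 0.15 and 0.12 in the 40kb-set libraries and -0.03 and -0.06 in the 70kb-set libraries, and -0.07 to 0.07 in the 8 allele libraries. Both 40kb-set libraries were therefore above the other 10 in this stretch, with no overlap. In 89 of the 220 genes (40.5%) both 70kb-set libraries were below both of the 40kb set and in 9 (4.09%) above. On the rest of the chromosome these shares were 27.1% and 11.4%, and on the other autosomes 18.4% and 22.8%.

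The stretch was chosen after its values were seen, and its windows share genes, so these counts describe it and carry no test. With windows of 20 genes 6 of the 20 lowest were on chromosome 8, and the longest run there was again 10, against 6 elsewhere. The lowest of these shorter windows was on another chromosome (-0.41, against -0.285 for the lowest on chromosome 8). Across windows the median was lower where the 40 genes spanned more sequence (Spearman's rho -0.43 over 652 overlapping windows), and the part that gene density plays was not tested. DNA copy number was not measured in these libraries.

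**Figure D3:**
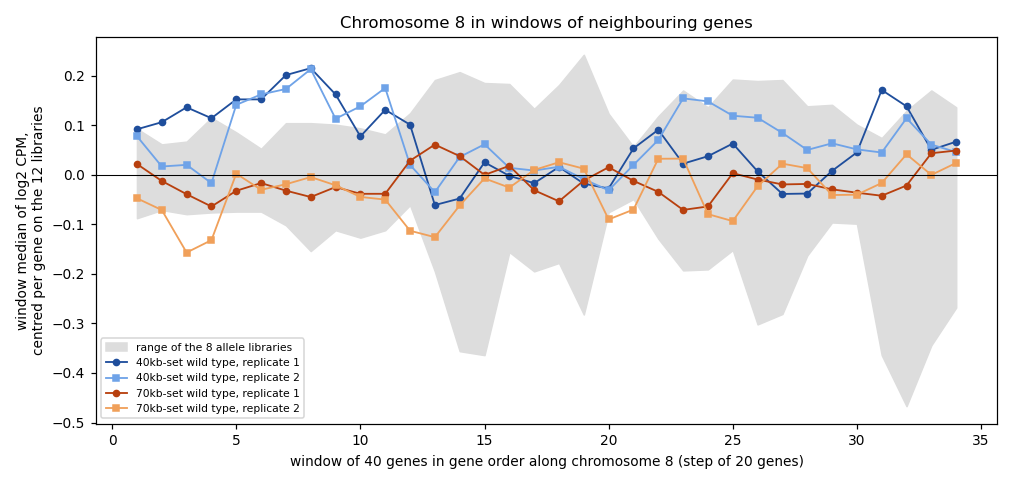
Median log2 CPM of windows of 40 genes in gene order along chromosome 8, centred per gene on the 12 RNA libraries, with 1 line per wild-type library and the range of the 8 allele libraries in grey. In windows 1 to 11 both 40kb-set lines run above both 70kb-set lines.

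The genes of the X-inactivation centre, which the study's alleles change, are intact in both sets. Xist, the RNA that coats and silences an X chromosome, was at 0.801 and 0.734 CPM in the 40kb set and at 2.25 and 0.832 CPM in the 70kb set. Only replicate 1 of the 70kb set stood higher, and without it the log2 difference of 1.01 (SE 0.77) was 0.11. Tsix, its antisense gene, was at 19.3 and 11.8 CPM against 19.7 and 11.7 CPM (log2 difference 0.02, SE 0.34), so that it separated the replicates and not the sets. Whether the counting used strand is not given, and reads of Xist and Tsix may be mixed where the genes overlap.

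Ftx and Rlim, on the Xist side, had lower levels in the 70kb set. Ftx, a noncoding RNA gene, was at 13.7 and 15.2 CPM against 7.78 and 8.86 CPM (-0.80, SE 0.30, unadjusted p = 0.0207), and its log2 difference stayed between -0.89 and -0.70 in all settings. Rlim, a ubiquitin ligase that activates Xist, was at 292 and 320 CPM against 251 and 227 CPM (-0.35, SE 0.16, unadjusted p = 0.0465). Both were higher in both 40kb-set libraries. For Ftx the allele libraries, at 4.477 to 18.15 CPM, covered both sets. The lower level was shared by neighbouring genes: the window of 40 genes from Xist to Chm had a median log2 difference of -0.15, with 31 genes below 0. On the Tsix side Cdx4, a caudal-type homeobox gene, was at 2.20 and 2.91 CPM against 0.459 and 1.53 CPM (-1.36, SE 0.62, unadjusted p = 0.0473, and -0.73 without replicate 1 of the 70kb set). Chic1 (-0.19, SE 0.21), Nap1l2 (-0.12, SE 0.41) and Tsx (0.31, SE 0.47) differed by less than their standard errors. Cdx4 and Rlim had both 40kb-set libraries above the other 10.

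Metallothioneins bind zinc and copper and are induced by metals and oxidative stress, and 2 of the 4 genes, Mt2 and Mt3, were higher in both 70kb-set libraries. This family and the selenoproteins were picked as lists after the values were seen. Mt2 (ENSMUSG00000031762.6) was at 98.8 and 150 CPM in the 40kb set and at 326 and 222 CPM in the 70kb set. The 8 allele libraries, at 188 to 407 CPM, were all above the 40kb set. Its log2 difference was 1.14 (SE 0.33, unadjusted p = 0.00428), and 0.84 without replicate 1 of the 70kb set. Mt1 was at 51.9 and 89.8 CPM against 174 and 88.9 CPM (0.89, SE 0.36, unadjusted p = 0.0294), and its sets overlapped. Without replicate 1 of the 70kb set its log2 difference was 0.33. Mt3, the brain form, was at 0.458 and 0.633 CPM against 1.88 and 1.196 CPM (1.496, SE 0.61), and Mt4 was near 0 in all 4 libraries (0.0759 to 0.193 CPM).

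Within the 70kb set the levels of Mt2 and Mt1 went with the B code. In each of the 3 groups of the 70kb set the B13 library had more Mt2 than the B14 library (326 against 222 CPM in wild type, 356 against 246 CPM in clone 18C6, 407 against 219 CPM in clone 20E7), and Mt1 had the same order. In the 40kb-allele clones replicate 1 was higher as well, and by replicate number the 40kb-set wild type was the 1 group of 6 with the opposite order. By code the 40kb set had no shared order. Mt2 was at 98.8 (B2) and 150 CPM (B6) in wild type. It was at 202 CPM in the B2 library of clone 2G1 and at 188 CPM in the B6 library of clone 3D5. The code's part in the difference between the sets was not tested. In gene order Mt4, Mt3, Mt2 and Mt1 lie side by side on chromosome 8. The 10 tested genes around them had log2 differences of -1.01 (Nlrc5, SE 0.68) to 0.16 (Herpud1, SE 0.35), and the smallest unadjusted p among them was 0.12 (Ogfod1, -0.28). The 4 genes lie outside the stretch from Timm44 to Lpar2.

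Metallothionein genes are regulated by the zinc-sensing factor MTF1, which binds metal response elements. The promoters of Mt2 and Mt1, the abundant members, are shown, as the 250 bases before the annotated start (RefSeq, GRCm38.p6), with each match of the element's core, TGCACNC or TGCGCNC on either strand, in capitals.
Mt2 (chr8:94172368-94172617, plus strand): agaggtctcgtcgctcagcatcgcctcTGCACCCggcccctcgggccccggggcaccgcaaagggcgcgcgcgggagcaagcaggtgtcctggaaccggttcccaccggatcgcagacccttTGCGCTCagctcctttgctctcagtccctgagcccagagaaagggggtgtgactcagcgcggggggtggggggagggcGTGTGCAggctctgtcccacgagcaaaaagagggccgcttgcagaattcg
Mt1 (chr8:94178839-94179088, plus strand): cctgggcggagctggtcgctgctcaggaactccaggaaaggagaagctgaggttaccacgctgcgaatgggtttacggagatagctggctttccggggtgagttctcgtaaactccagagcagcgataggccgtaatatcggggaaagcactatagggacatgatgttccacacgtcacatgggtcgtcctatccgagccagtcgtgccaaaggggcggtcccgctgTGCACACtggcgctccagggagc
Mt2 has 3 matches in this window, Mt1 has 1 and Mt3 has 0. With the 50 bases after the annotated start the numbers are 4, 3 and 1. Of 32841 promoters of that build, 21.4% have at least 1 match in the 250 bases and 1.26% at least 3, and 1.97% have at least 3 when the 50 bases after the start are included. A match is a run of letters and not a site shown to be bound.

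Selenoproteins, which carry selenocysteine and depend on the selenium of the medium, differed in a few members. Of 22 tested genes 4 were higher in the 70kb set at an unadjusted p under 0.05 and 0 lower. Of all genes 1.29% were higher and 1.08% lower at that threshold. The list was picked after its values were seen, so this count carries no test. Its median log2 difference was 0.15. Gpx1 (ENSMUSG00000063856.5), a glutathione peroxidase known for its strong dependence on selenium supply, was at 108 and 185 CPM in the 40kb set against 313 and 289 CPM (1.04, SE 0.31, unadjusted p = 0.00536). Selenow was at 23.2 and 45.9 CPM against 71.3 and 47.7 CPM (0.78, SE 0.30), and Selenoh at 46.4 and 86.6 CPM against 143 and 110 CPM (0.93, SE 0.41). In all 3 the lowest of the 4 libraries was replicate 1 of the 40kb set, and without it the log2 differences were 0.70 for Gpx1, 0.37 for Selenow and 0.55 for Selenoh. Gpx4, the peroxidase of membrane lipids, was at 388 and 347 CPM against 504 and 435 CPM (0.35, SE 0.15). Of the 22 genes 7 had log2 differences below 0, and 3 of these were lower in both 70kb-set libraries: Selenon (10.7 and 13.5 against 4.396 and 10.1 CPM), Txnrd2 (10.2 and 8.23 against 7.56 and 6.99 CPM) and Selenoo (5.08 and 6.38 against 4.25 and 4.94 CPM). Others such as Selenof and Selenot had differences of 0.14 and 0.07 with overlapping sets.

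**Figure D4:**
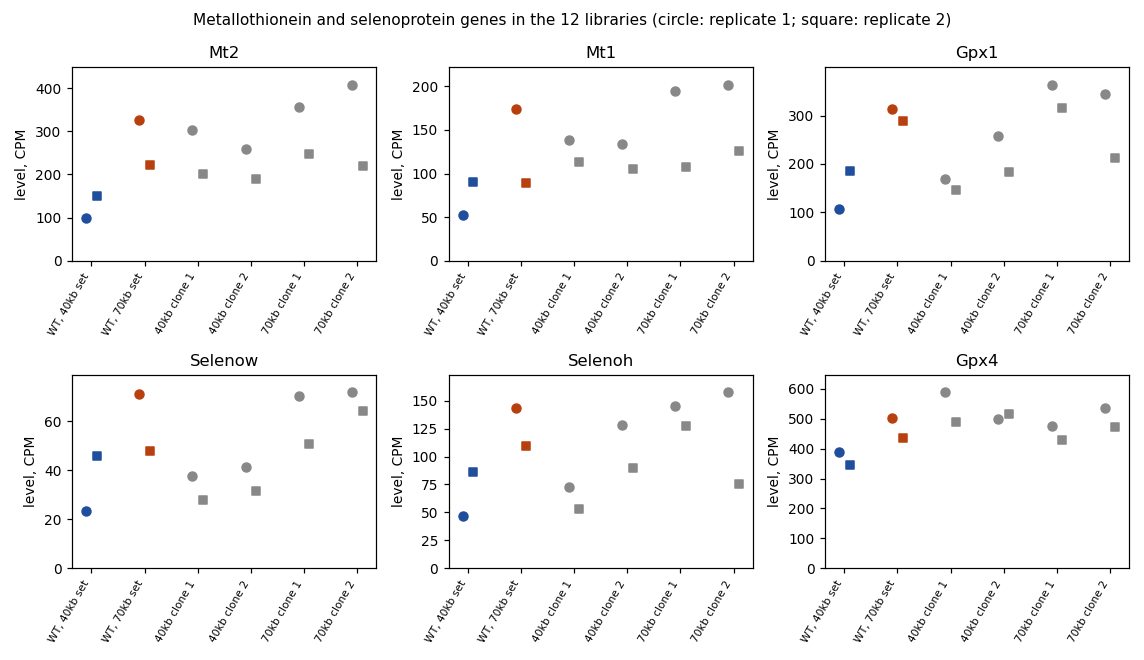
Levels in CPM (axes from 0) of Mt2, Mt1, Gpx1, Selenow, Selenoh and Gpx4 in the 12 RNA libraries by group, circles for replicate 1 and squares for replicate 2. For Mt2 both wild-type libraries of the 40kb set (98.8 and 150 CPM) lie below the other 10.

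Of the 42 lists of pathways and cell types 0 had a called gene, and 11 had both 70kb-set medians above both of the 40kb set and 5 had both below. List medians are given as the median of log2 CPM centred per gene on the 4 libraries. Of the core pluripotency factors, Nanog and Sox2 had levels that overlapped between the sets. Nanog was at 420 and 336 CPM against 348 and 324 CPM and Sox2 at 578 and 405 CPM against 564 and 530 CPM. Of 22 naive and core genes 18 had log2 differences above 0, with a median of 0.16 that was 0.06 without replicate 1 of the 70kb set and turned to -0.03 without replicate 2 of the 40kb set. In 8 of them both 70kb-set libraries were higher and in 1 lower, against shares of 21.2% and 19.0% of all genes. Those with the smallest p were Dppa2, a chromatin factor (104 and 98.9 against 140 and 135 CPM), Klf4 (98.1 and 75.5 against 125 and 145 CPM) and the nuclear receptor Nr0b1 (91.3 and 61.4 against 154 and 95.2 CPM), with log2 differences of 0.44, 0.64 and 0.71 (SE 0.20, 0.29 and 0.35). That of Nr0b1 was 0.32 without replicate 1 of the 70kb set.

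Formative genes and DNA methylation genes also leaned higher in the 70kb set. Of 15 formative and primed genes 8 were higher in both 70kb-set libraries and 0 lower in both, against 21.2% and 19.0% of all genes. Their median log2 difference was 0.30. Foxd3, a forkhead factor of the exit from naive pluripotency, was at 21.1 and 13.9 CPM against 31.2 and 34.9 CPM (0.92, SE 0.37, unadjusted p = 0.0286), while the primed marker Fgf5 was at 8.22 and 17.0 CPM against 2.90 and 8.45 CPM. All 11 writers and erasers of DNA methylation had log2 differences above 0, against 51.1% of all genes. In 8 of them both 70kb-set libraries were higher, against 21.2% of all genes. The median was 0.25, and 0.35 without replicate 1 of the 70kb set. Dnmt3l, the cofactor of the de novo enzymes, was at 242 and 219 CPM against 309 and 305 CPM (0.41, SE 0.19), the demethylating enzyme gene Tet1 at 626 and 563 CPM against 743 and 876 CPM (0.44, SE 0.25) and the imprint keeper Zfp57 at 260 and 163 CPM against 277 and 303 CPM (0.46, SE 0.28, and 0.16 without replicate 2 of the 40kb set).

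Genes of the 2-cell-like state, a rare condition in which ES cells switch on transcripts of the 2-cell embryo, were the list with the highest median. Of 13 tested genes 11 had log2 differences above 0, against 51.1% of all genes (median 1.06). In 10 both 70kb-set libraries were higher and in 1 lower, against 21.2% and 19.0% of all genes. The centred list medians were -0.41 and -0.48 in the 40kb set and 0.85 and 0.04 in the 70kb set. Zscan4c, of a telomere-associated family, was at 3.09 and 4.05 CPM against 12.3 and 6.73 CPM. The genes with the smallest p were Zfp352 (log2 difference 1.28, SE 0.61), Usp17lc (1.44, SE 0.73) and Tmem92 (1.25, SE 0.64). Without replicate 1 of the 70kb set the median was 0.67. The Zscan4 and Usp17l genes have near-identical copies between which reads can be split, so single members are uncertain. The counts of members above are for the same reason not counts of separate genes. The 8 allele libraries had a summed level of 20.1 to 98.9 CPM, which covers the 4 wild-type libraries (28.0, 28.4, 58.3 and 35.0 CPM).

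Markers of differentiated, adherent cells were lower in the 70kb set, and much of this rested on 1 library. The simple-epithelium keratins, filament genes of early differentiating cells, had summed levels of 428 and 569 CPM in the 40kb set and of 104 and 433 CPM in the 70kb set, with replicate 1 apart and replicate 2 near the 40kb set. Krt18 was at 174 and 214 CPM against 42.2 and 153 CPM, Krt19 at 42.8 and 54.6 CPM against 11.4 and 32.5 CPM and Krt7 at 12.9 and 14.1 CPM against 2.30 and 8.21 CPM. The median of the 4 keratins was -1.07 and, without replicate 1 of the 70kb set, -0.46. The 8 allele libraries ranged from 14.8 to 741 CPM.

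Smooth-muscle and fibroblast genes followed the same libraries. All 12 tested contractile genes had log2 differences below 0, where 51.1% of all genes were above 0. Only 3 of them were lower in both 70kb-set libraries, against 19.0% of all genes. The median of -0.52 was 0.06 without replicate 1 of the 70kb set. Acta2, smooth-muscle actin, was at 58.4 and 62.9 CPM against 13.3 and 63.2 CPM, and Tagln at 160 and 239 CPM against 51.0 and 198 CPM. Of 18 fibroblast and matrix genes 15 were below 0 and 6 were lower in both 70kb-set libraries, against 19.0% of all genes. Their median was -0.74, and -0.26 without replicate 1 of the 70kb set. The collagen gene Col1a2 was at 16.5 and 11.5 CPM against 1.43 and 11.6 CPM, and Pdgfrb, a receptor of stromal cells, at 2.29 and 3.85 CPM against 1.33 and 2.05 CPM. In replicate 1 of the 70kb set the list medians were -1.64 for keratins, -0.83 for contractile and -1.06 for fibroblast genes, and the same library was the lowest of the 4 in 18 of the 42 lists.

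Primitive streak genes and Wnt targets separated the replicates in both sets. T (brachyury), the defining factor of the streak, was at 4.53 and 27.3 CPM in the 40kb set and at 1.43 and 8.42 CPM in the 70kb set, a larger step between replicates than between sets. Wnt3, which induces the streak, was at 2.95 and 10.2 CPM against 0.676 and 3.25 CPM and Fgf8 at 3.00 and 10.6 CPM against 1.11 and 2.68 CPM (log2 difference -1.84, SE 0.82, unadjusted p = 0.0431, and -0.67 without replicate 2 of the 40kb set). Of 15 streak and mesoderm genes 13 were higher in replicate 2 than in replicate 1 in the 40kb set and 13 in the 70kb set. Their centred medians were -0.07 and 0.94 in the 40kb set and -0.81 and 0.11 in the 70kb set. Kdr, a receptor of blood and vessel precursors, went the other way between the sets (1.74 and 2.84 against 4.32 and 3.69 CPM).

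All 13 Wnt targets were higher in replicate 2 of the 40kb set than in its replicate 1, and 12 in the 70kb set. Between the sets their median log2 difference was -0.69, with Dkk1, a secreted Wnt inhibitor, at 0.412 and 0.886 CPM against 0.0966 and 0.208 CPM (-2.07, SE 0.78, unadjusted p = 0.0206) and Notum, another, at 15.5 and 20.6 CPM against 32.5 and 26.3 CPM. The members thus did not share a direction between the sets. Replicate 2 of the 40kb set was the highest of the 4 libraries in 16 of the 42 lists. Replicate numbers have no stated meaning across sets.

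**Figure D5:**
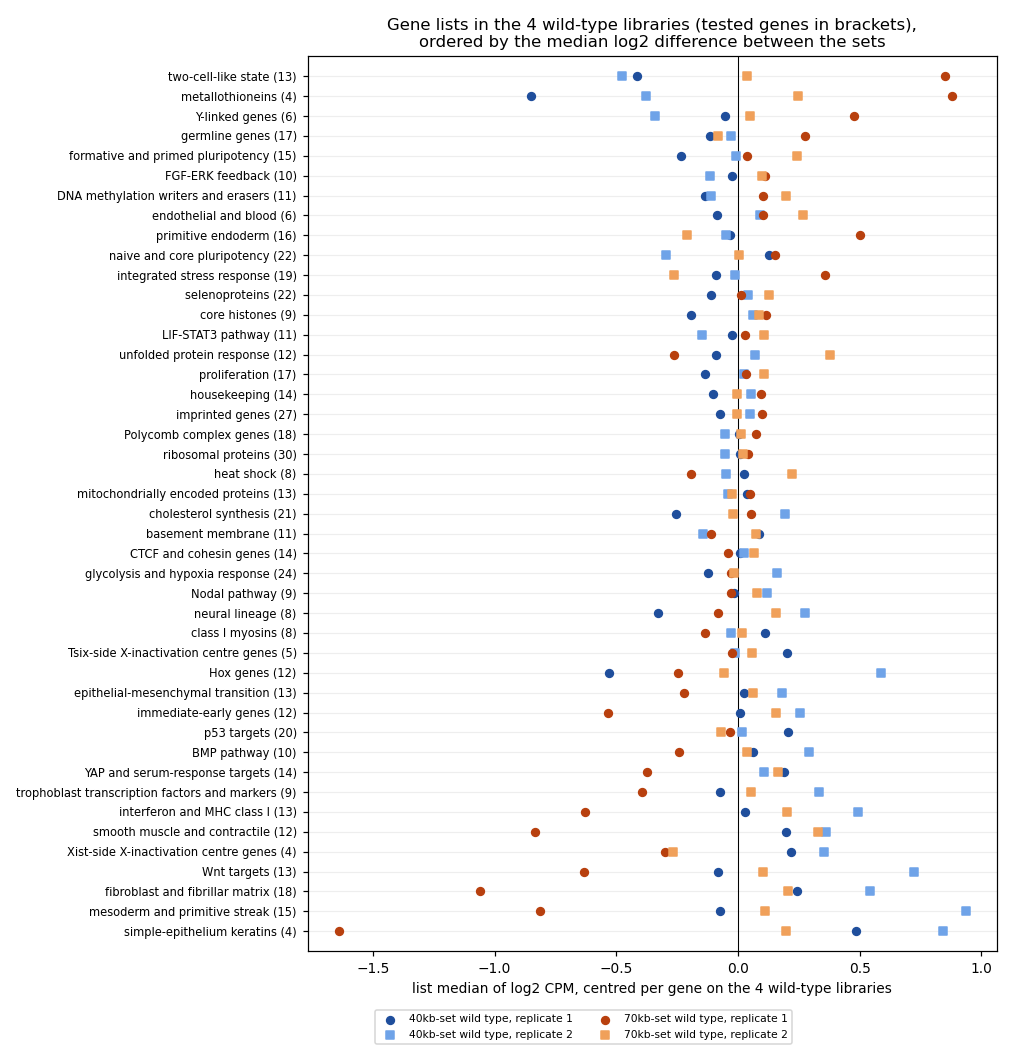
Median of log2 CPM, centred per gene on the 4 wild-type libraries, for each gene list (tested genes in brackets), 1 symbol per library, ordered by the median log2 difference between the sets. Replicate 1 of the 70kb set is far to the left for keratins (-1.64), fibroblast genes (-1.06) and contractile genes (-0.83) and far to the right for 2-cell-like genes (0.85), with the other 3 libraries nearer to each other.

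Primitive endoderm genes were split. Of 16 tested genes 10 had log2 differences above 0 and 6 below (lowest -1.29). In 4 both 70kb-set libraries were higher and in 3 lower, against 21.2% and 19.0% of all genes. The summed level of the list was 209.8 and 237.6 CPM in the 40kb set and 149.5 and 235.8 CPM in the 70kb set. At an unadjusted p under 0.05 in edgeR 3 genes were higher in the 70kb set, against 1.29% of all genes. They were Srgn, Cubn, an endocytic receptor (0.985 and 0.835 against 4.06 and 1.38 CPM), and the GATA factor Gata4 (1.05 and 1.04 against 2.68 and 1.43 CPM). Without replicate 1 of the 70kb set the log2 difference of Cubn was 0.60, from 1.58, and that of Gata4 0.45, from 0.97. The defining factors Gata6 (0.504 and 0.582 against 1.04 and 0.546 CPM) and Sox17 (0.275 and 0.152 against 0.386 and 0.182 CPM) were near the lower end of detection in all 4. Without replicate 1 of the 70kb set the list median of 0.21 was -0.23.

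Immune, stress and metabolic lists differed more by library than by set. Of 13 interferon and class I antigen presentation genes 11 were below 0, where 51.1% of all genes were above 0. Their median was -0.45, and -0.09 without replicate 1 of the 70kb set. B2m, the light chain of class I molecules, was at 30.1 and 28.6 CPM against 17.5 and 20.3 CPM. Of 19 genes of the integrated stress response 17 were lower in replicate 2 than in replicate 1 of the 70kb set, among them Chac1, a glutathione-degrading enzyme gene (16.9 and 3.77 CPM). In the 40kb set Chac1 was at 3.16 and 10.1 CPM. Of 24 glycolysis and hypoxia genes 22 and of 21 cholesterol synthesis genes 20 were higher in replicate 2 than in replicate 1 of the 40kb set, and their medians between the sets were -0.02 and 0.03.

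Genes of the Y chromosome leaned higher in the 70kb set. The translation factor gene Eif2s3y was at 118 and 117 CPM against 144 and 143 CPM (log2 difference 0.29, SE 0.21), the helicase gene Ddx3y at 52.5 and 48.5 CPM against 82.6 and 69.3 CPM (0.59, SE 0.34) and the demethylase gene Uty at 40.0 and 34.8 CPM against 58.2 and 41.5 CPM (0.42, SE 0.24). These 3 did not overlap between the sets. The allele libraries, at 60.02 to 147 CPM for Eif2s3y and 26.4 to 76.9 CPM for Ddx3y, reached below both sets. All 6 tested Y-linked genes were lower in replicate 2 than in replicate 1 in both sets, and their median of 0.50 was 0.29 without replicate 1 of the 70kb set. Of 30 ribosomal protein genes 15 were higher in both 70kb-set libraries and 2 lower (median 0.06). Of 17 proliferation genes 9 were higher and 0 lower (median 0.12). The shares of all genes were 21.2% and 19.0%, so that small differences were shared by many members. Medians of similar size were found for Polycomb genes (18, 0.07), imprinted genes (27, 0.08) and housekeeping genes (14, 0.09). That of CTCF and cohesin genes (14) was -0.01, and that of all genes 0.01. Of the 18 Polycomb genes 15 were above 0 and 3 below, with 4 higher in both 70kb-set libraries and 2 lower.

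Some genes separated the replicates of a set by more than most genes named above separated the sets. In the 70kb set Kctd19, a meiosis gene, was at 5.34 and 0.468 CPM, Megf11, a cell-surface gene, at 14.3 and 2.05 CPM and Napsa, an aspartic protease, at 25.1 and 3.90 CPM, while the neuropeptide gene Nts (0 and 1.09 CPM), the matrix gene Tnc (0.580 and 7.82 CPM) and the protocadherin Pcdh7 (0.0966 and 1.43 CPM) went the other way. In the 40kb set T and Evx1, also of the streak (0.115 and 0.835 CPM), were highest in replicate 2, and mt-Nd6 (45.3 and 11.6 CPM), the mitochondrial gene on the light strand, and Cyp1a1, the classic target of the aryl hydrocarbon receptor (2.08 and 0.506 CPM), in replicate 1. In the 70kb set mt-Nd6 had its higher level, 41.2 CPM, in replicate 2, so that a high level occurred in both sets.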

How the data were processed

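RNA was read as the deposited table of whole-number counts per gene, raw per the file's values. The submitters' processing notes list STAR, edgeR and mm9, without versions, and the libraries were made with a stranded kit, per the labels' protocols. The strand setting is not stated there. Of 37310 identifiers 32620 matched a symbol and 28093 a chromosome of the RefSeq table (GRCm38.p6), used for names and gene order.

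Counts of 12 libraries were fitted with edgeR 4.0.16 in R 4.3.3 (TMM, the tool's default filter by group, 4 group means, 8 residual degrees of freedom, biological coefficient of variation 23.8%). The contrast was the 70kb-set minus the 40kb-set wild type, with Benjamini-Hochberg adjustment over 16636 genes and a threshold of 0.05. SE denotes the standard error of the fitted log2 difference. DESeq2 1.42.0 was the alternative tool. Log2 CPM had a prior count of 2. The fit was tested on simulated data.

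Members and lists were chosen with earlier results of these data known. The rule for named genes took the measured genes of the X-inactivation centre, per direction 10 genes whose sets do not overlap (mean of at least 20 counts, no predicted genes, called genes first, then the smallest unadjusted p), up to 3 genes per list with the smallest p, per set the largest replicate differences and the most extreme chromosome. Other list members, and the stretch of chromosome 8, were named after their values were seen. List members with no match in the table, such as Jpx and Hmgcs1, were not analysed here. One measured gene of the X-inactivation centre is not reported here.

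Alternatives were another tool, scaling, filter, groups, the replicate number as a block, and each wild-type library left out.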

Additional observations from a re-analysis of the deposited data

How the results depend on the processing

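The count of 0 called genes was 0 in 13 of 14 alternatives and 1 (Capn3, higher) with a mean per clone. At an unadjusted p under 0.05 there were 1167 genes with the 4 wild-type libraries alone, where the smallest adjusted p was 0.376 in edgeR, and 163 to 656 genes with 1 wild-type library left out (208 without replicate 1 of the 70kb set, 656 without its replicate 2), with 0 called. With the replicate number as a block 0 genes were called in the fit of 12 libraries (565 at an unadjusted p under 0.05) and 0 in that of the 4 wild-type libraries (2092; smallest adjusted p = 0.0659 in edgeR). Same-numbered replicates deviated together across 14403 genes (r = 0.39), but with 2 pairs and no label for a shared day the numbers were not taken as marking shared cultures.

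With 50 counts as the minimum in place of 20, the genes at least 2-fold apart were 98 between the 40kb-set replicates, 285 between replicate 1 of the 40kb set and replicate 2 of the 70kb set and 172 between both replicates 2. The other 15 pair counts stayed within 1.5 times. The log2 difference of Tsix changed sign under DESeq2 (-0.0029), RLE factors (-0.00292), library totals (-0.0391), the filter of 50 counts (-0.0105) and the block in the 4 wild-type libraries (-0.000132), and was -0.407 to 0.414 with 1 library left out. That of Nap1l2 was -0.276 to 0.0577 with 1 library left out. The other 69 of 71 genes with a tested difference kept their sign in all settings. In 30 of the 71 the value moved by over 1.5 times or changed sign with 1 wild-type library left out. The median of 16 of the 42 lists changed sign in at least 1 setting. Of the list medians 561 of 616 moved by less than the spread between replicates, and of the chromosome medians 166 of 294.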
